A study of Mus musculus with 20 samples.

Results

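The fibrinogen, anticoagulant and fibrinolysis genes are a set of 10 liver-linked genes of haemostasis, chosen by symbol. They comprise the fibrinogen chains Fga, Fgb and Fgg, the anticoagulants Proc, Pros1 and Tfpi, the fibrinolysis genes Plg and Cpb2, and the vitamin K cycle enzymes Ggcx and Vkorc1. Of these 10 genes, 9 had an intact line in the deposited count table of 35504 genes, of which 23993 were intact. All 9 also passed the filter on low counts, as did 10207 genes in all. Vkorc1, which regenerates reduced vitamin K, lost its counts to a displaced line and was not analysed here.

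Liver RNA of 20 individual female mice was sequenced, 1 library per mouse. The 4 groups of 5 mice were OC.Sed (a diet with oral combined contraceptives, sedentary), OC.VWR (the same diet with voluntary wheel running), Con.Sed (vehicle diet, sedentary) and Con.VWR (vehicle diet, with voluntary wheel running). Strain, age, duration, and the hormones and doses in the diet are not stated in the labels used here. Total counts per library were summed over intact lines only. They were 12172401 to 14759028 in OC.Sed, 12769367 to 14757592 in OC.VWR, 10883936 to 14260634 in Con.Sed and 13886098 to 16134618 in Con.VWR. Replicate 2 of Con.Sed stood apart from the other libraries. It lay at -55.3 on the second principal component, which held 11.2% of the variance, against -11.1 to 17.9 for the other 19 libraries, and it had the lowest total count.

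Fibrinogen is made by hepatocytes from alpha, beta and gamma chains, and thrombin turns it into the fibrin of a clot. Protein C, with protein S as its cofactor, inactivates the activated forms of clotting factors V and VIII, and tissue factor pathway inhibitor blocks the start of clotting at factor VIIa and factor Xa. Plasminogen is the precursor of plasmin, which dissolves fibrin, and the carboxypeptidase encoded by Cpb2 slows that by trimming the fibrin residues to which plasminogen binds. Gamma-glutamyl carboxylase, the product of Ggcx, uses reduced vitamin K to modify protein C, protein S and several clotting factors. In people, combined oral contraceptives are known to shift the plasma levels of haemostatic proteins, many of which the liver makes.

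Levels are given as CPM, counts scaled to library size, with library sizes adjusted by edgeR's TMM factors. A gene was called where edgeR's quasi-likelihood test gave a Benjamini-Hochberg adjusted p under 0.05 over all 10207 genes. Averaged over activity, the OC diet raised 3 of the 9 genes, Pros1, Cpb2 and Ggcx, and lowered none. The same test called 22.9% of all genes (11.9% higher, the remainder lower). In sedentary mice 1 of the 9 was called, Ggcx, higher, against 16.3% of all genes (9.11% higher and 7.2% lower). In running mice 1 of the 9 was called, Pros1, also higher, against 13.2% of all genes (7.09% higher and 6.06% lower). The median log2 fold change of the 9 genes was -0.01 in sedentary mice, -0.08 in running mice and -0.05 averaged, beside medians of all genes of -0.01, 0.01 and 0.00. Of the 9 averaged values 4 were above 0.

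The 3 fibrinogen genes lie beside each other, Fgg at chr3:83007724-83015049 (plus strand), Fga at chr3:83026076-83033627 (plus) and Fgb at chr3:83040141-83049863 (minus), in GRCm38 with GENCODE vM21 annotation. Pros1 lies at chr16:62854307-62929346 (plus), Cpb2 at chr14:75242287-75283555 (plus) and Ggcx at chr6:72414308-72430712 (plus). The promoters of these 6 genes are shown because the first 3 varied together and the others were called on the OC diet. Each sequence is 300 bases from RefSeq on GRCm38.p6, 250 before and 50 after the start that RefSeq gives, written along the gene's strand. For Fga that start lies downstream of the GENCODE start above, and for the other 5 genes the starts are the same. Capitals mark CTGGGA on either strand (TCCCAG is its reverse complement), the core of the interleukin 6 response elements described in rat fibrinogen genes.
Fga, chr3:83025903-83026202, plus strand: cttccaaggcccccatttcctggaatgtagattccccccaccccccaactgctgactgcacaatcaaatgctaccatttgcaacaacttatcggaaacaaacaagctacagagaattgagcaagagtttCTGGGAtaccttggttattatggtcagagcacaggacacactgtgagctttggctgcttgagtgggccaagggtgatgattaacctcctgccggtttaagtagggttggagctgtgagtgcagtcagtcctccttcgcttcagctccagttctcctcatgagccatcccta
Fgb, chr3:83049814-83050113, minus strand: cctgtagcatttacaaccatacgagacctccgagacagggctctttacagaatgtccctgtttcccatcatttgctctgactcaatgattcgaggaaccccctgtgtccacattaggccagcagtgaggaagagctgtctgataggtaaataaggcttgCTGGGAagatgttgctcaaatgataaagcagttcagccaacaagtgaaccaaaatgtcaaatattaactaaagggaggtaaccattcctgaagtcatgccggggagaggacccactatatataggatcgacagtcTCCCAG
Fgg, chr3:83007474-83007773, plus strand: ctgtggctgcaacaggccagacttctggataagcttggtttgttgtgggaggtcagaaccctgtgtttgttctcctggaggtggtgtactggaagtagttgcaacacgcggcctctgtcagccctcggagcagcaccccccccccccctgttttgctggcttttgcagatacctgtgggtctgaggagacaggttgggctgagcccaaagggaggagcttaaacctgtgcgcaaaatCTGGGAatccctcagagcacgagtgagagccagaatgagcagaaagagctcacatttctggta
Pros1, chr16:62854057-62854356, plus strand: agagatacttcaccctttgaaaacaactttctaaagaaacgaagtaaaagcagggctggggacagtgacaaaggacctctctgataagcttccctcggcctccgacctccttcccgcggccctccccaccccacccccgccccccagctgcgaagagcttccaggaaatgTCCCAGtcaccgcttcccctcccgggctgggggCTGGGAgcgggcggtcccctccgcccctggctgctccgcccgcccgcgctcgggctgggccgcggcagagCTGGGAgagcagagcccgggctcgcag
Cpb2, chr14:75242037-75242336, plus strand: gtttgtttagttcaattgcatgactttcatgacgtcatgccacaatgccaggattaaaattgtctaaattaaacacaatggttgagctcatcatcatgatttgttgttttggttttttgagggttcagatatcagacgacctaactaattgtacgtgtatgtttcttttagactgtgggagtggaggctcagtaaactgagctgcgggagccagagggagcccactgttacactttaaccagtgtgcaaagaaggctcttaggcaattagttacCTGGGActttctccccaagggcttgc
Ggcx, chr6:72414058-72414357, plus strand: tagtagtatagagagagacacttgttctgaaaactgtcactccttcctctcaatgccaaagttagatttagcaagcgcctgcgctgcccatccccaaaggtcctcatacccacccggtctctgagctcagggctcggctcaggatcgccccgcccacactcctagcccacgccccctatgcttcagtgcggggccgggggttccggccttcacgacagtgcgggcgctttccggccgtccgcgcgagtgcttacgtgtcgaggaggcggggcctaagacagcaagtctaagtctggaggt

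Of the 10 genes 8 had a promoter in this table. The hexamer CTGGGA was present in the promoters of Fga, Fgb, Fgg, Pros1, Cpb2 and Tfpi, with none in the Ggcx window, and in 31.8% of the 32851 promoters of the table. Counted from the RefSeq start, its first base stood at -121 in Fga, at -91 and 45 in Fgb, at -13 in Fgg, at -80, -47 and 24 in Pros1, at -75 in Tfpi and at 25 in Cpb2. Core letters of the hepatocyte factor HNF1 (GTTAAT, either strand) were found at -43 in Fga and -29 in Fgb, and in 7.1% of all promoters. The core letters of an oestrogen receptor site (AGGTCA, either strand) were found at -201 in Fgg and at 29 in a second Tfpi promoter, and in 16.3% of all promoters. A C/EBP-like motif (TTGCNNAA, either strand) was found at -135 in Fga, -80 in Fgb, 9 in Cpb2 and -184 in Ggcx, and in 10.8% of all promoters. No matches of different motifs overlap in the 6 promoters shown, and a match is a description of the sequence only.

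The fibrinogen chains had the highest levels per exon length of the 9 genes and did not pass the test in any diet contrast. Together the 3 mRNAs took 1.07 to 1.69% of the counts in intact lines in OC livers and 1.07 to 1.69% in vehicle livers. Fga, the alpha chain, read 4668, 3944, 4889, 4420 and 3931 CPM in OC.Sed livers (replicates 1 to 5) and 6214, 3567, 5350, 4263 and 4073 CPM in Con.Sed livers. In OC.VWR livers it read 3176, 5009, 3455, 5319 and 3294 CPM, and in Con.VWR livers 4671, 4569, 6172, 4772 and 5006 CPM. Both pairs of groups overlap, and in OC.VWR 3 livers are low and 2 are high. The log2 fold change of Fga was -0.10 ± 0.16 (SE; adjusted p = 0.709) in sedentary mice, -0.31 ± 0.16 (adjusted p = 0.216) in running mice and -0.21 ± 0.12 (adjusted p = 0.205) averaged.

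Fgb, the beta chain, read 5464, 4854, 5675, 5152 and 4691 CPM in OC.Sed livers and 7014, 3714, 5553, 5092 and 5508 CPM in Con.Sed livers. Its levels were 4263, 5174, 4239, 7079 and 3833 CPM in OC.VWR livers and 4638, 4946, 6203, 4915 and 5248 CPM in Con.VWR livers. The highest and the lowest Fgb levels of the 20 livers were replicate 4 of OC.VWR and replicate 2 of Con.Sed. The averaged log2 fold change was -0.07 ± 0.11 (adjusted p = 0.716), with a 95% interval of -0.30 to 0.17. Fgg, the gamma chain, read 3396, 3083, 3634, 3500 and 3109 CPM in OC.Sed livers and 4542, 2882, 4300, 3600 and 3840 CPM in Con.Sed livers. It read 2999, 3713, 3123, 4566 and 2456 CPM in OC.VWR livers and 3359, 3563, 4641, 3528 and 3896 CPM in Con.VWR livers. All OC.Sed livers lay under the Con.Sed mean, yet the groups overlap, with replicates 2 and 4 of Con.Sed below the highest OC.Sed liver. The averaged log2 fold change of Fgg was -0.18 ± 0.10 (adjusted p = 0.217), with an interval of -0.40 to 0.03. Without replicate 2 of Con.Sed the averaged values were -0.25 for Fga, -0.12 for Fgb and -0.23 for Fgg, at adjusted p = 0.105, 0.416 and 0.0953. Under 6 other alternatives of scaling, filter, tool or moved-back lines the averaged values reached -0.092 for Fga, 0.049 for Fgb and -0.068 for Fgg at the highest. Their lowest values were -0.215, -0.074 and -0.191, and none passed.

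**Figure D1:**
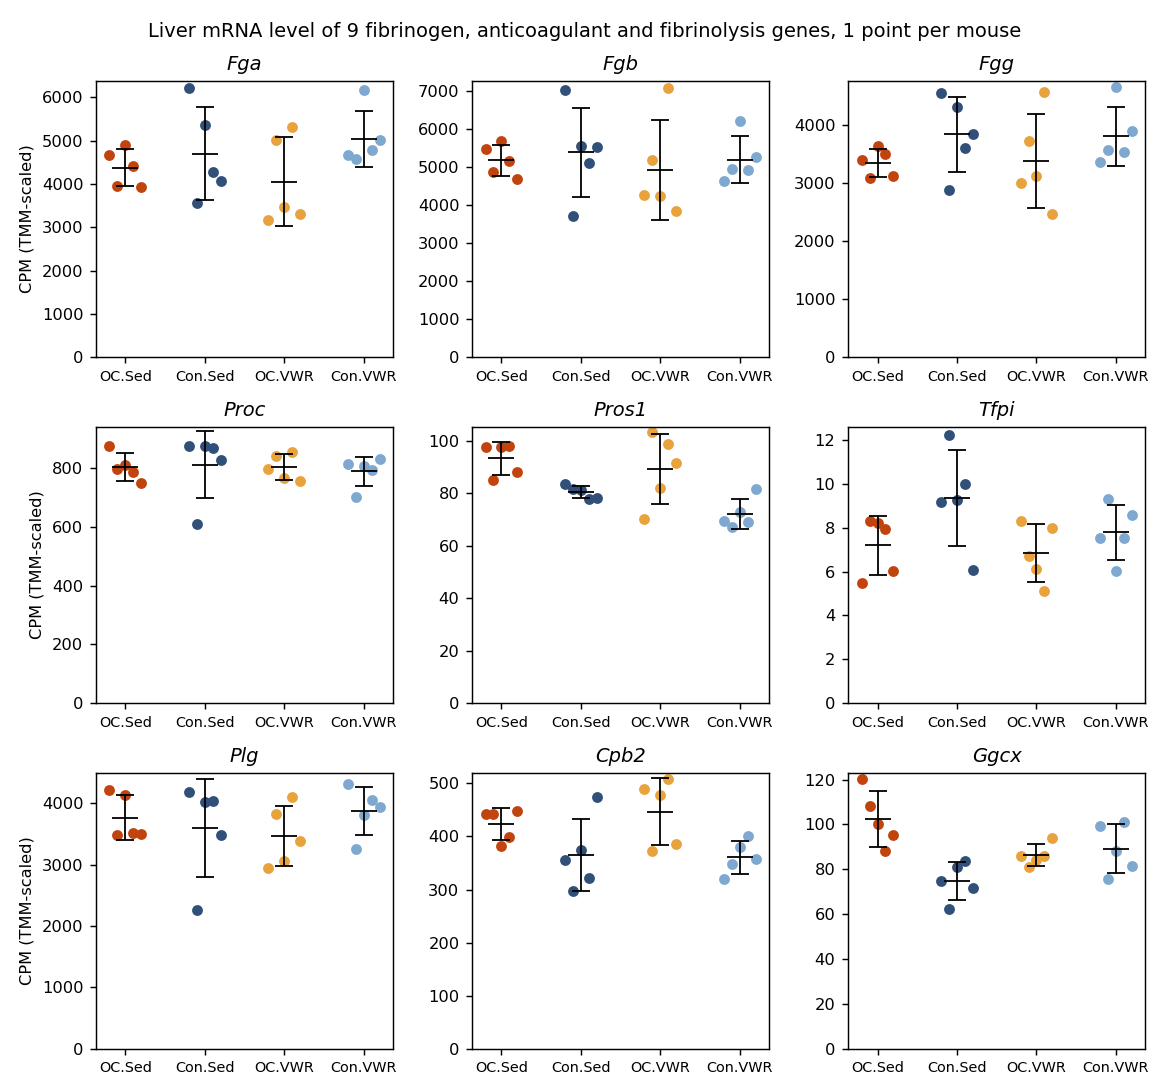
Liver mRNA level (TMM-scaled CPM, linear axes from 0) of the 9 genes by group, 1 point per mouse, with bars for the mean and SD of 5 mice. Ggcx in OC.Sed (88.3 to 120.2 CPM) sits above all Con.Sed livers, while the fibrinogen groups overlap.

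The balance among the chain mRNAs was measured within each library as a ratio of counts, which does not depend on the scaling between libraries. Fga over Fgb averaged 0.836 ± 0.063 in OC livers and 0.924 ± 0.083 in vehicle livers (SD, n = 10 each). By group it was 0.845 ± 0.021 in OC.Sed and 0.877 ± 0.094 in Con.Sed, and 0.828 ± 0.092 in OC.VWR and 0.971 ± 0.034 in Con.VWR (n = 5 each). In Con.VWR the ratio was 0.924 to 1.01 in the 5 livers, and 1 OC.VWR liver, at 0.968, lay inside that range. A ratio of counts is not a ratio of mRNA molecules, because merged exons span 3.01 kb in Fga and 3.81 kb in Fgb. Per kb of exons, Con.VWR livers averaged 1674 CPM for Fga and 1362 CPM for Fgb. Fgg over Fgb averaged 0.668 ± 0.039 in OC livers and 0.725 ± 0.038 in vehicle livers. In sedentary mice it was 0.622 to 0.679 in OC.Sed and 0.648 to 0.776 in Con.Sed. In running mice it was 0.641 to 0.737 in OC.VWR and 0.718 to 0.748 in Con.VWR, so both pairs overlap. These ratios were looked at after the values were known, and no test is given.

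**Figure D2:**
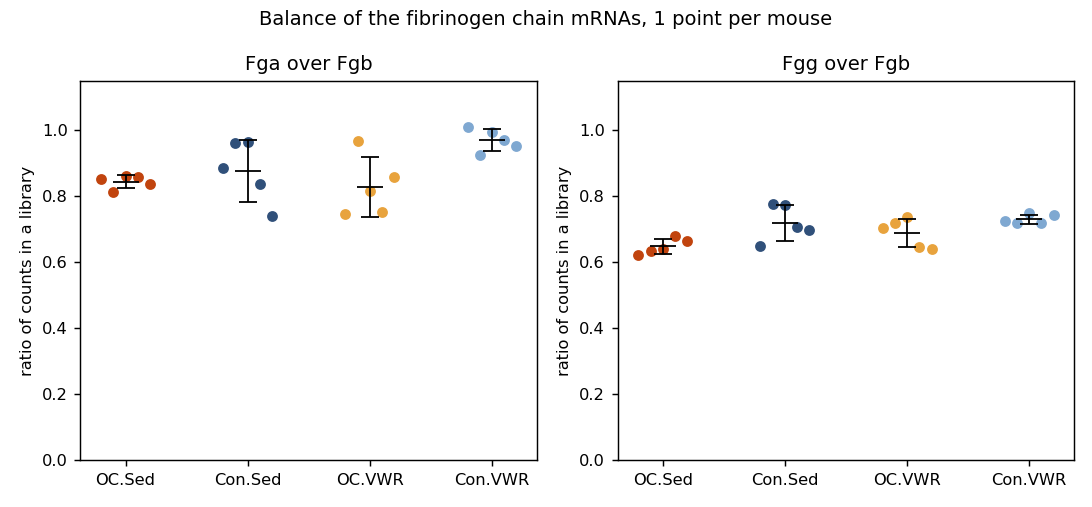
Ratio of counts within a library (linear axis from 0) of Fga to Fgb and of Fgg to Fgb by group, 1 point per mouse, with bars for the mean and SD of 5 mice. Fga over Fgb is 0.924 to 1.01 in Con.VWR and 0.745 to 0.968 in OC.VWR.

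Protein S (Pros1) was the anticoagulant that rose. In OC.Sed livers it read 97.8, 84.8, 97.6, 98.0 and 88.0 CPM, and in Con.Sed livers 83.3, 81.6, 81.2, 77.8 and 78.1 CPM. These 2 groups do not overlap, although replicate 2 of OC.Sed and replicate 1 of Con.Sed are close. In OC.VWR livers Pros1 read 70.2, 103.4, 81.8, 98.6 and 91.4 CPM, and in Con.VWR livers 69.2, 67.1, 72.9, 68.9 and 81.5 CPM. Replicate 1 of OC.VWR lies among the Con.VWR livers, and replicate 5 of Con.VWR is the highest of its group. Averaged over activity Pros1 was 1.20-fold higher, a log2 fold change of 0.26 ± 0.06 (adjusted p = 0.00534), and 9 of 10 OC livers lay above the vehicle mean. It was 0.21 ± 0.09 (adjusted p = 0.113) in sedentary mice and 0.31 ± 0.09 (adjusted p = 0.0293) in running mice, and the interaction of diet and activity, which tests the difference between them, was 0.10 ± 0.13 (adjusted p = 0.729). The averaged call held without each library in turn (adjusted p 0.000695 to 0.0171). The call in running mice was lost without any of 7 single libraries (OC.VWR replicates 2, 4 and 5 and Con.VWR replicates 1 to 4), with adjusted p up to 0.0838.

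Protein C (Proc, chr18:32123126-32139570, minus strand), the enzyme precursor that protein S assists, had nearly the same mean level on both diets. It averaged 803.8 ± 43.4 CPM in OC livers and 800.3 ± 83.6 CPM in vehicle livers (SD, n = 10 each). The averaged log2 fold change was 0.01 ± 0.07 (adjusted p = 0.959), with a 95% interval of -0.13 to 0.15. Replicate 2 of Con.Sed, at 610.7 CPM, was the lowest liver, and without it the value was -0.04 (adjusted p = 0.654). As a ratio of counts, Proc over Pros1 was 8.91 ± 1.00 in OC livers and 10.6 ± 1.19 in vehicle livers.

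Tissue factor pathway inhibitor (Tfpi, chr2:84432855-84476775, minus strand), made mainly by endothelial cells, was the scarcest of the 9, with 69 to 141 counts per library. It read 5.47, 8.32, 8.22, 7.93 and 6.05 CPM in OC.Sed livers and 9.20, 12.3, 9.28, 10 and 6.09 CPM in Con.Sed livers. In OC.VWR livers it read 8.32, 6.73, 6.12, 5.12 and 7.97 CPM, and in Con.VWR livers 7.54, 9.32, 6.02, 7.55 and 8.58 CPM. The diets overlap at every activity, though no OC liver exceeded the vehicle mean of 8.59 CPM. The averaged log2 fold change was -0.28 ± 0.12 (adjusted p = 0.108), so Tfpi did not pass the test. Leaving out replicate 5 of Con.Sed, the lowest of its group, brought it to -0.34 (adjusted p = 0.0378), and leaving out replicate 2 brought it to -0.23 (adjusted p = 0.183). Under 6 other alternatives of scaling, filter, tool or moved-back lines the averaged value ran from -0.288 to -0.172, and none passed. Of 16 liver endothelial markers 12 were tested, none was called in the averaged contrast (median log2 -0.14), and their summed level was 360.1 to 610.8 CPM in OC livers and 411.0 to 594.9 CPM in vehicle livers. The part of endothelial RNA in the Tfpi values was not tested, and in whole liver fewer cells of a type cannot be told apart from less RNA per cell.

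Cpb2, the brake on fibrinolysis, was the member whose OC livers all lay above the vehicle mean of 362.5 CPM. It read 441.8, 442.2, 381.6, 399.3 and 448.4 CPM in OC.Sed livers and 355.1, 298.1, 373.7, 321.3 and 473.3 CPM in Con.Sed livers. Replicate 5 of Con.Sed is higher than every OC.Sed liver, and the other 4 are lower than all of them. In OC.VWR livers Cpb2 read 489.1, 372.4, 477.1, 508.7 and 385.8 CPM, and in Con.VWR livers 319.0, 347.8, 379.7, 400.3 and 356.9 CPM. Averaged over activity it was 1.20-fold higher, with a log2 fold change of 0.26 ± 0.08 (adjusted p = 0.0272). Within each activity it did not pass, at 0.21 ± 0.12 (adjusted p = 0.225) in sedentary mice and 0.31 ± 0.12 (adjusted p = 0.0886) in running mice. The averaged call was lost at adjusted p = 0.0510, 0.0531 and 0.0523 without replicate 1 of OC.Sed, replicate 4 of OC.VWR or replicate 1 of Con.VWR. Scaling by library totals alone, which puts the median of all genes at 0.10 in sedentary and 0.12 in running mice (-0.01 and 0.01 with TMM), brought Cpb2 past the threshold at both activities (adjusted p = 0.0170 and 0.00533).

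Plasminogen (Plg, chr17:12378608-12419385, plus strand) did not pass. It ranged from 2952 to 4216 CPM in OC livers and from 2258 to 4307 CPM in vehicle livers, with averages of 3619 ± 440.6 and 3736 ± 608.1 CPM. The averaged log2 fold change was -0.05 ± 0.10 (adjusted p = 0.784), with an interval of -0.26 to 0.17. Its sedentary value of 0.07 became -0.06 without replicate 2 of Con.Sed, the lowest liver for this gene, and passed the test in neither fit.

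Ggcx, the carboxylase, had the largest diet effect of the 9 genes in sedentary mice. It read 120.2, 108.3, 100.1, 88.3 and 95.2 CPM in OC.Sed livers and 74.6, 62.2, 80.9, 83.8 and 71.6 CPM in Con.Sed livers. The groups do not overlap, and every OC.Sed liver was above every Con.Sed liver. The fold was 1.37, with a log2 fold change of 0.46 ± 0.10 (adjusted p = 0.00428), and the call held without each library in turn (adjusted p 0.00269 to 0.0225). In OC.VWR livers Ggcx read 86.0, 81.2, 84.1, 86.1 and 94.2 CPM, and in Con.VWR livers 99.1, 75.9, 88.3, 101.1 and 81.3 CPM. There the groups overlap, 4 of 5 OC.VWR livers lay below the Con.VWR mean, and the log2 fold change was -0.05 ± 0.10 (adjusted p = 0.799). The averaged value of 0.20 ± 0.07 (adjusted p = 0.0407) pools both activities. That call was lost without any of 13 single libraries, including replicate 2 of Con.Sed (0.17, adjusted p = 0.0647), with adjusted p up to 0.117. It was also lost with no filter on low counts (adjusted p = 0.0573) and with displaced lines moved back (adjusted p = 0.0720).

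**Figure D3:**
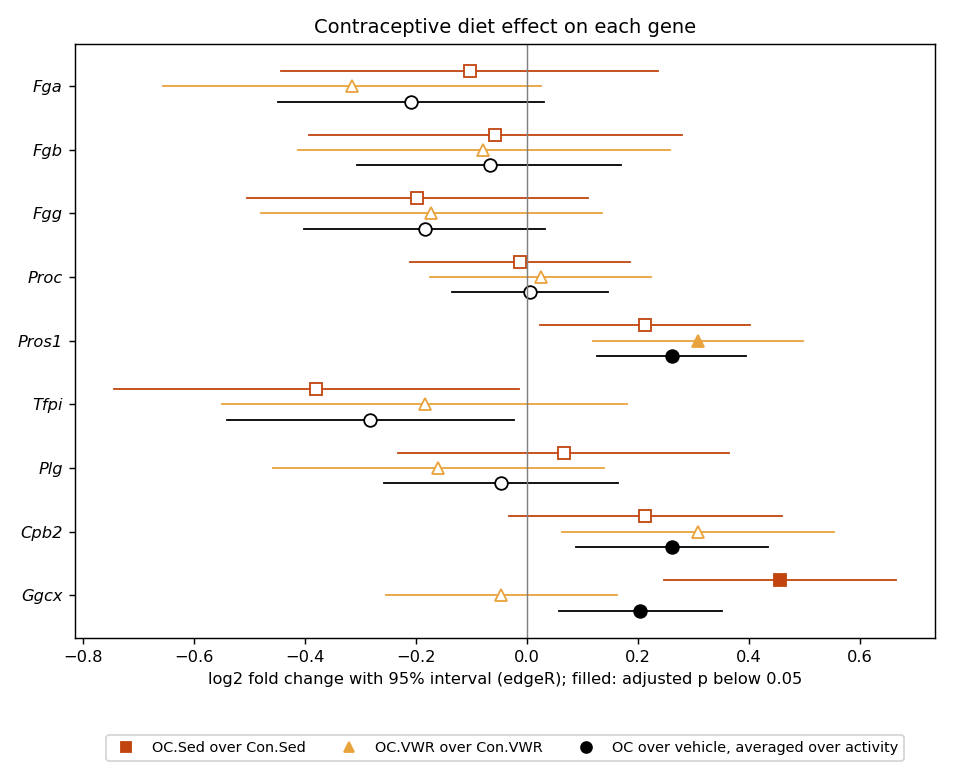
Log2 fold change of each gene on the OC diet over the vehicle diet (horizontal axis) with its 95% interval from edgeR, in sedentary mice, in running mice and averaged over activity, filled where the adjusted p was below 0.05. Ggcx is at 0.46 in sedentary mice and -0.05 in running mice, while Pros1 and Cpb2 lie above 0 in all 3.

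Running did not move any of the 9 genes past the threshold on either diet, averaged over diet, or as an interaction with diet. edgeR called 0.0% of all genes in each of these 4 comparisons. At an unadjusted p under 0.05 it gave 1414 genes on the vehicle diet, 694 on the OC diet, 496 averaged and 1802 for the interaction, where DESeq2 called 42, 1, 2 and 119 genes and limma voom called 0 in each. The member under 0.05 unadjusted was Ggcx alone, in 3 of the 4 comparisons. On the vehicle diet Ggcx averaged 89.2 ± 11 CPM in Con.VWR and 74.6 ± 8.50 CPM in Con.Sed, a log2 fold change of 0.26 ± 0.10 (adjusted p = 0.293). On the OC diet it averaged 86.3 ± 4.81 CPM in OC.VWR and 102.4 ± 12.3 CPM in OC.Sed, a log2 fold change of -0.25 ± 0.10 (adjusted p = 0.683). All 5 Con.VWR livers lay above the Con.Sed mean, and all 5 OC.VWR livers lay below the OC.Sed mean. The interaction was -0.50 ± 0.14 (unadjusted p = 0.00190, adjusted p = 0.201), so the difference between the diet effects at the 2 activities did not pass after adjustment. The other 8 genes had interaction values from -0.23 to 0.19. The running effects averaged over diet lay between -0.17 and 0.03, with Tfpi (-0.17 ± 0.12) and Pros1 (-0.11 ± 0.06) the lowest, at adjusted p = 0.978 and 0.944.

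Levels of different genes were compared per kilobase of merged exons in the annotation. In Con.Sed livers Fgg stood at 1831 ± 309.6 CPM per kb, followed by Fga (1559 ± 355.6), Fgb (1411 ± 309.9), Plg (969.8 ± 214.1), Proc (327.4 ± 45.9), Cpb2 (223.6 ± 41.5), Ggcx (23.0 ± 2.62), Pros1 (19.7 ± 0.58) and Tfpi (1.72 ± 0.40) (SD, n = 5). The order was the same in OC.Sed, OC.VWR and Con.VWR. The 3 fibrinogen chains overlap within 1 SD of each other in Con.Sed. By the same rule Fgb overlaps Plg in OC.VWR and Con.Sed, and Fga overlaps Plg in OC.VWR. Proc and Cpb2 overlap within 1 SD only in OC.VWR, at 324.2 ± 18.2 and 274.2 ± 38.6 CPM per kb, the other 3 groups keeping them apart. The coefficient of variation between mice ran from 5.39% (Proc) to 18.3% (Fgb) in OC livers and from 8.02% (Pros1) to 21.9% (Tfpi) in vehicle livers.

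Mouse-to-mouse variation was described with the deviations of log2 CPM from each group's mean in the 20 livers, which share library depth and scaling. The fibrinogen chains varied together, with Pearson r of 0.904 for Fga and Fgb, 0.909 for Fga and Fgg, and 0.956 for Fgb and Fgg. Plg and Proc varied together at 0.918, or 0.835 without replicate 2 of Con.Sed. The 36 pairs had a median r of 0.33 and ran from -0.67 (Tfpi and Cpb2) to 0.956. The r of Tfpi and Cpb2 was -0.61 without replicate 2 of Con.Sed. It was -0.44 without the 2 livers whose Tfpi deviations lay farthest from their median. With the mean of the 3 fibrinogen chains, r was 0.705 for Plg, 0.688 for Proc, 0.527 for Pros1, -0.50 for Tfpi, 0.254 for Cpb2 and 0.083 for Ggcx. The genes most like that mean among 8861 with at least 1 CPM were Lbp (r = 0.883), Btbd6 (0.847), Ces1e (0.843), Rp9 (0.841) and Ppm1l (0.829), where the median gene had -0.009. Lbp, the lipopolysaccharide-binding protein of the acute phase, had 0.18 on the log2 scale averaged over activity (adjusted p = 0.204). Ces1e, a carboxylesterase, was at -0.83 on the OC diet (adjusted p = 7.42e-06).

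**Figure D4:**
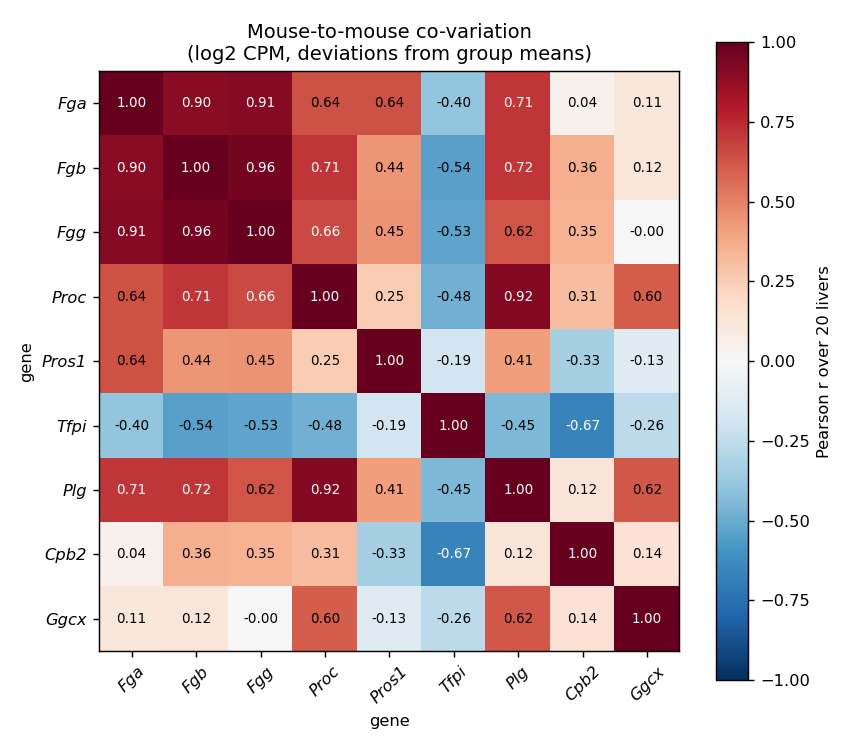
Pearson r over 20 livers between the 9 genes (rows and columns, colour scale from -1 to 1), from deviations of log2 CPM from group means. The fibrinogen block is at 0.904 to 0.956, Plg with Proc is at 0.918, and Tfpi is negative with every other gene.

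The other genes of the pathways are described by lists chosen with earlier results of these data known. Of 9 other anticoagulant genes 3 were tested, and averaged over activity 1 rose and 1 fell. In sedentary mice 1 rose and 1 fell, while in running mice 1 rose and 0 fell. C4bp, the alpha chain of the complement regulator C4b-binding protein, which in people binds protein S in plasma, averaged 946.0 ± 101.5 CPM in OC livers and 638.3 ± 90.9 CPM in vehicle livers. Its log2 fold change was 0.57 ± 0.08 (adjusted p = 4.12e-05), with all 10 OC livers above the vehicle mean. Tfpi2, a protease inhibitor related to Tfpi, averaged 44.7 ± 8.08 CPM in OC livers and 69.5 ± 18.8 CPM in vehicle livers (log2 -0.64 ± 0.14, adjusted p = 0.00251). Thbd, the endothelial receptor that lets thrombin activate protein C, did not pass (-0.01 ± 0.14, adjusted p = 0.970).

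Antithrombin (Serpinc1), the main inhibitor of thrombin, had its counts moved 1 place to the right in the table. With such lines moved back, over 10851 genes and 19 libraries, because the count of replicate 5 of Con.VWR was lost, it read 2736, 2480, 2475, 2459 and 2445 CPM in OC.Sed and 3188, 2689, 3491, 2803 and 3613 CPM in Con.Sed. It read 2689, 2440, 2482, 2895 and 2211 CPM in OC.VWR and 2936, 2974, 3210 and 3259 CPM in 4 Con.VWR livers. All 10 OC livers lay below the vehicle mean. In sedentary mice, whose groups overlap, the log2 fold change was -0.326 ± 0.099 (adjusted p = 0.0316). In running mice the groups do not overlap, yet the value of -0.283 ± 0.105 (adjusted p = 0.0823) did not pass. The averaged log2 fold change was -0.30 ± 0.07 (adjusted p = 0.00466). Handled the same way, Serpind1 (heparin cofactor II) was at -0.09 ± 0.07 (adjusted p = 0.400) and Serpinf2 (the plasmin inhibitor alpha 2-antiplasmin) at -0.01 ± 0.09 (adjusted p = 0.961).

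Of 15 other fibrinolysis genes 4 were tested and 1, Anxa2, an annexin that binds plasminogen at the cell surface, fell. It averaged 12.4 ± 1.5 CPM in OC livers and 22.3 ± 18.1 CPM in vehicle livers (log2 -0.79 ± 0.23, adjusted p = 0.0155). Replicate 2 of Con.Sed reached 73.5 CPM, and without it the value was -0.43 (adjusted p = 0.000564). In this list 1 gene fell in sedentary mice and 0 in running mice, or 1 in running mice without that library. In the list of 10 vitamin K cycle genes and other vitamin K-dependent proteins 6 were tested, with 1 higher and 1 lower. Prrg2, a membrane protein with a carboxylated domain, was at 0.18 ± 0.07 (adjusted p = 0.0485), a call lost without any of 16 single libraries (adjusted p up to 0.116). The other, Mgp, the matrix Gla protein that restrains calcification, had a log2 fold change of -0.66 ± 0.20 (adjusted p = 0.0176), or -0.49 without replicate 2 of Con.Sed (adjusted p = 0.0256). Mgp averaged 2.495 CPM in OC.Sed and 5.321 CPM in Con.Sed, but 2.381 CPM in OC.VWR and 2.824 CPM in Con.VWR. In running mice 0 genes of this list were called. Of 8 tested stellate cell and fibroblast markers 6 fell, with summed levels of 365.3 to 594.1 CPM in OC livers and 529.2 to 755.9 CPM in vehicle livers, and their part in the values of Mgp and Anxa2 was not tested.

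Of 15 procoagulant factors 12 were tested, with 1 higher and 3 lower averaged over activity. In sedentary mice 1 was higher and 3 lower, while in running mice 0 were higher and 2 lower. F11 (factor XI) was at 0.42 ± 0.14 (adjusted p = 0.0297), F2 (prothrombin) at -0.29 ± 0.07 (adjusted p = 0.00427), F10 at -0.24 ± 0.08 (adjusted p = 0.0283) and Kng2, a kininogen, at -0.23 ± 0.07 (adjusted p = 0.0264). F11 averaged 107.8 CPM in OC.Sed and 69.46 CPM in Con.Sed, but 87.73 CPM in OC.VWR and 75.51 CPM in Con.VWR. Without replicate 2 of Con.Sed the averaged contrast had 1 higher and 6 lower in this list. The F11 call was lost without any of 6 single libraries (adjusted p up to 0.0606) and the F10 call without replicate 5 of OC.Sed (adjusted p = 0.0558). Of 10 tested hepatocyte markers 5 fell and 1 rose, and their summed level was 103800 to 142900 CPM in OC livers and 165600 to 226700 CPM in vehicle livers. Most of that sum is albumin, at 76140 ± 11250 CPM in OC livers and 130700 ± 16810 CPM in vehicle livers. The part of that shift in the values of the 9 genes was not tested beyond the scaling by library totals. None of the 3 tested platelet markers was called, with sums of 4.88 to 8.50 CPM in OC livers and 4.06 to 7.70 CPM in vehicle livers.

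Fibrinogen is a textbook interleukin 6 acute phase protein. Of 19 other genes of that response 15 were tested, 5 rose and 2 fell, so they moved in both directions while the fibrinogen chains passed in neither. Orm3, an orosomucoid, rose by 1.98 ± 0.28 on the log2 scale (adjusted p = 2.80e-05) and Hp, haptoglobin, by 0.53 ± 0.09 (adjusted p = 0.000278), without overlap between diets in either. Saa4 rose by 0.45 ± 0.10 (adjusted p = 0.00313). Saa2, an inducible serum amyloid A, was lower, at -1.31 ± 0.25 (adjusted p = 0.000710). Because these serum amyloid and orosomucoid genes have close paralogs, reads may have been split between copies. Of 14 hepatocyte transcription factors and receptors 6 were tested and 2 rose averaged over activity. In sedentary mice 4 rose and 0 fell, while in running mice 1 rose and 1 fell. Without replicate 2 of Con.Sed the averaged contrast had 1 higher and 1 lower in this list. Lifr, the leukaemia inhibitory factor receptor, was at 2.65 ± 0.20 (adjusted p = 4.90e-09). Esr1, the oestrogen receptor alpha, was at 0.34 ± 0.11 (adjusted p = 0.0330), a call lost without any of 8 single libraries (adjusted p up to 0.0735).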

How the data were processed

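The labels' protocols describe stranded paired-end libraries from the livers of 20 female mice. STAR, the mm10 build, R 4.05 and limma are the tools and build listed in the submitters' processing notes. How reads were counted, and with which annotation and strand setting, is not given in the sources used here. The deposited table was taken to hold unscaled expected counts per gene, because 2 genes had values that were not whole. Every value used was whole, so rounding changed none, and the planned design had assumed counts. Whole numbers would also fit plain counts.

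Of 35504 lines 23993 were intact, and 11511 displaced or doubtful lines were left out. In an alternative, 570 lines whose counts stood 1 place to the right were moved back. Over 19 libraries the correlation of their mean log2 profile with that of intact genes was 0.30 as they stood and 0.93 when moved back. IDs were matched to GENCODE vM21 (GRCm38, the build mm10 names), and 35467 had a symbol. Gm30097 and Slc22a3 overlap Fgg and Plg on the opposite strand, and Gm18147 and the miRNA Gm44482 lie within Cpb2 on the same strand.

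The test was edgeR's (4.0.16, R 4.3.3) quasi-likelihood test after filterByExpr and TMM scaling, with the 4 group means estimated jointly from all 20 libraries. For each of 7 contrasts, Benjamini-Hochberg adjustment covered 10207 genes. Adjusted p-values come from it where no other tool is named, and a value after ± on a log2 fold change is its standard error. Alternatives were RLE scaling, library totals, no filter, DESeq2 1.42.0, limma voom 3.58.1, fits to the 2 groups compared, moved-back lines and leaving out each library. Replicates were numbered in accession order. The p-values set differences between group means against the spread between mice, 1 library each. In the main fit that spread was estimated from all 4 groups together. Nothing in the labels gives a batch. The steps were tested on simulated data with known changes.

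The 9 member genes were all named, then of each pathway list up to 4 called genes with the smallest adjusted p averaged over activity, and the 5 genes most like the fibrinogen mean. Log2 CPM for that likeness had 0.5 CPM added. The others (Thbd, Serpinc1, Serpind1, Serpinf2, Alb) were named after their values were seen. The members and lists were chosen with earlier results of these data known.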

Additional observations from a re-analysis of the deposited data

Results flagged for a closer look

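A sample was looked for in each group of 5 whose gap to its nearest neighbour, divided by the group's range, was above Dixon's critical value of 0.71. Of 36 groups (9 genes in 4 groups) 2 held one, and chance alone flags about 1 in 20 groups. Fga in Con.VWR replicate 3 was 6172 CPM, the highest of its group, against 4569 to 5006 CPM in the other 4 livers. Proc in Con.Sed replicate 2 was 610.7 CPM, the lowest of its group, against 828.9 to 874.7 CPM in the other 4 livers. That library also had the lowest Fgb, Plg, Cpb2 and Ggcx and the highest Tfpi of the 20 livers.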

How the results depend on the processing

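Counts of called members and of all called genes stayed within 1.5 times under RLE scaling, limma voom, no filter and moved-back lines. Scaling by library totals alone called 3 members in sedentary mice (Pros1 and Cpb2 joining Ggcx) and 2 in running mice (Cpb2 joining Pros1). Calls over all genes rose with that scaling too, from 1665 to 2072 in sedentary mice and from 1343 to 1725 in running mice. The fit to only the 2 running groups called 0 members on the OC diet, with Pros1 at adjusted p = 0.0804. DESeq2 called 42 genes for running on the vehicle diet, 1 on the OC diet, 2 averaged and 119 for the interaction, against 0 by edgeR, and no member in any of the 4. Leaving out each library in turn gave 1 to 1 member and 998 to 1794 genes in sedentary mice, 0 to 2 members and 817 to 1679 genes in running mice, and 1 to 3 members and 2043 to 2616 genes averaged over activity. For the running contrasts it gave 0 to 0 members throughout, 0 to 0 genes on the vehicle diet, 0 to 1 on the OC diet, 0 to 1 averaged and 0 to 2 for the interaction. Of 1674 recomputed member values 1642 kept their side of the threshold, 26 lost it and 6 gained it. No called value reversed, and 110 values that passed in neither fit changed sign. The causes were not tested. The 69 to 141 counts of Tfpi per library limit its precision. No paired analysis was possible because the labels give the samples no replicate numbers, and numbers in accession order pair nothing.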

Other observations

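The deposited line of Vkorc1 (chr7:127893063-127895617, minus strand, GRCm38) was emptied, with a 1 for the first library followed by zeros. The predicted gene Gm21974, which overlaps it on the same strand, had 1269 to 2018 counts per library. These counts cannot be assigned to Vkorc1.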
